A study of Mus musculus with 9 samples.

Results

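Lgr5, Ascl2, Smoc2, Lrig1, Sox9, Axin2, Rnf43, Znrf3, Ephb2 and Cd44 are 10 genes of the crypt base and of the Wnt response that are used to read the stem cell compartment of the intestine. They were chosen by name and matched by symbol to the 54491 rows of the expression table, where each of the 10 was found. All 10 were among the 17907 genes that reached 0.5 FPKM (a fragment count divided by the length of the transcript and the size of the library) in at least 3 libraries and were tested.

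RNA of mouse colon tissue was sequenced from C57BL/6 mice that were 6 weeks old at the start, with 45 animals assigned at random to groups of 15, and tissue was taken at postnatal day 98. The groups were control, a high-fat diet (HFD), and the same diet with gavage (dosing into the stomach by tube) of the bacterium Papillibacter cinnamivorans. The 9 libraries are control replicates 1, 2 and 3, HFD replicates 1, 2 and 4, and HFD + P. cinnamivorans replicates 1, 3 and 4, n = 3 in each group. The labels do not say whether each library is a separate mouse, so p-values measure only the spread between libraries, which may be technical. No group gavaged without the bacterium was analysed here, so gavage and bacterium cannot be told apart.

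Epithelial stem cells sit at the base of the colonic crypt and are kept there by Wnt ligands from the surrounding tissue. Wnt binding stabilises beta-catenin, which joins TCF/LEF factors on DNA and switches on target genes, and R-spondins raise the signal by binding LGR receptors and removing the ubiquitin ligases RNF43 and ZNRF3 from the cell surface. Several targets, among them Axin2, Rnf43 and Znrf3, dampen the pathway in turn, so their RNA serves as a readout of it. In bulk tissue, fewer cells of a type and less RNA per cell cannot be told apart.

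The libraries differed in markers of other cells and of position along the gut, and control replicate 1 stood apart from the other 2 controls. Which stretch of the colon was sampled is not stated in the labels. The summed level of 9 posterior Hox genes, which are used along the body axis near the hind end, was 71.9, 17.8 and 12.0 FPKM in control replicates 1, 2 and 3, from 281 to 301 FPKM under the diet alone, and from 26.6 to 34.3 FPKM in HFD + P. cinnamivorans. Hoxd13 was at 72.6 to 94.3 FPKM in HFD and at 0 to 0.450 FPKM in the other 6 libraries. Of the 8 posterior genes tested, 5 rose in HFD against control, but not all of the 9 were higher there. Hoxa11 was at 1.65 to 1.97 FPKM in HFD and 2.28 to 12.0 FPKM elsewhere, and Hoxc10 at 0 and 0 to 0.623 FPKM. The 7 anterior Hoxb genes ran opposite to the posterior sum, at 4.64 to 5.51 FPKM in HFD against 25.6 to 131 FPKM. The 12 leukocyte genes summed to 139 to 173 FPKM in control, 507 to 555 FPKM in HFD and 125 to 196 FPKM in HFD + P. cinnamivorans, and 11 of them rose in HFD against control. The 8 smooth muscle genes summed to 6872 FPKM in control replicate 1 and to 1305 to 3196 FPKM elsewhere. The 8 pan-epithelial genes summed to 1522 to 2476, 1444 to 1656 and 1124 to 1533 FPKM in the 3 groups. None of these marker genes was at 0 in all libraries. Their part in the differences below was not tested, and results are also given without control replicate 1. The fragments recovered per library numbered 14862417 to 17370035.

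In HFD against control, 2 of the 10 genes rose and 0 fell, with Ascl2 and Sox9 as the genes called. A gene was called at a limma adjusted p below 0.05 (Benjamini-Hochberg over all tested genes), and by that rule 10.6% of the 17907 genes were higher and 9.11% lower, 19.7% in all. The median log2 difference of the 10 genes was 0.27, against -0.001 over all tested genes. In HFD + P. cinnamivorans against HFD, 1 of the 10 rose and 1 fell, Cd44 and Ascl2, where 4.54% of all tested genes were higher and 7.60% lower, 12.1% in all. The median log2 difference of the 10 was -0.30, against -0.014 over all tested genes. In HFD + P. cinnamivorans against control, limma called 0 of the 10 (2 had an unadjusted p below 0.05, and limma-voom on the recovered fragments also called 0), where it called 1.11% of all tested genes. These shares of called members stand near those of all genes. The first and the second comparison share the HFD libraries, so their values are set side by side only.

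**Figure D1:**
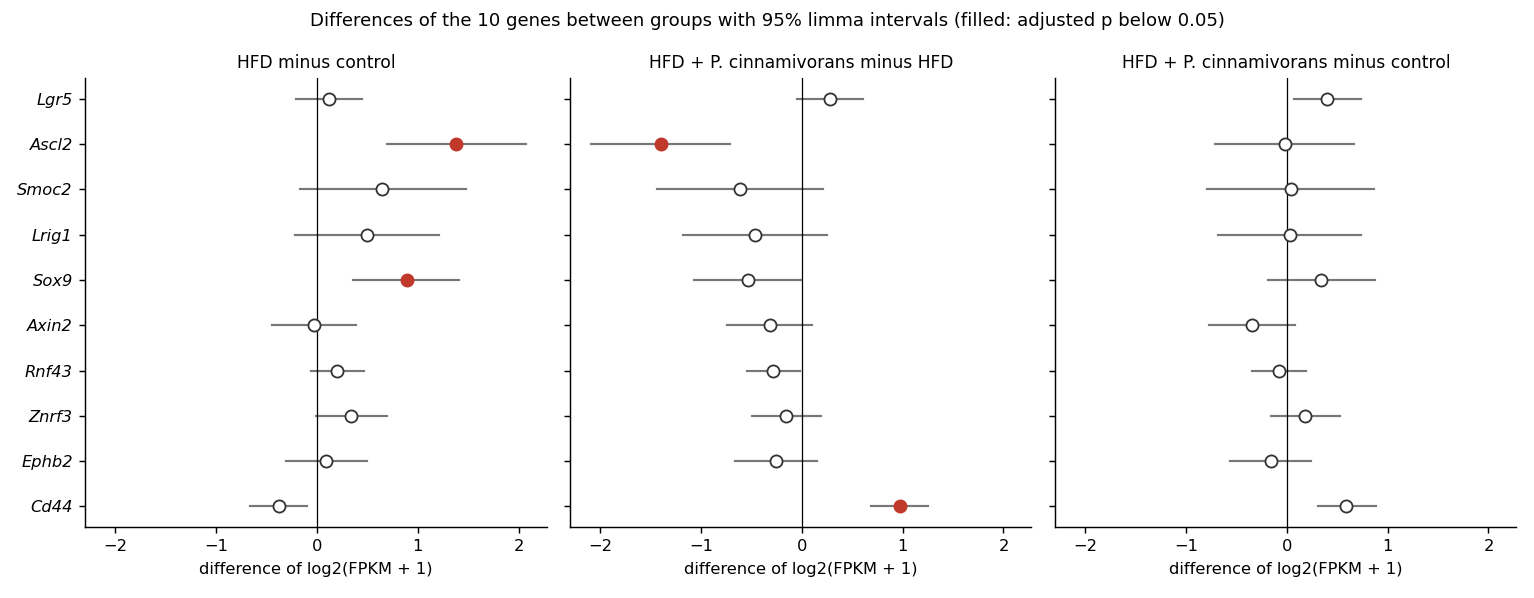
Difference of log2(FPKM + 1) between groups (x axis) for each of the 10 genes (y axis), with the bar giving the 95% limma interval, in 3 panels for the 3 comparisons. Filled points have an adjusted p below 0.05: Ascl2 and Sox9 in HFD against control, Ascl2 and Cd44 in HFD + P. cinnamivorans against HFD, and none in HFD + P. cinnamivorans against control.

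The promoters of Ascl2 and Cd44 are shown because these were the genes called in opposite directions between HFD + P. cinnamivorans and HFD. The windows, from RefSeq on GRCm38.p6, run from 250 bases before to 50 after a gene's start. They are printed 5′ to 3′ on the strand of the gene in lower case, with CG dinucleotides, the sites of DNA methylation, in capitals. Ascl2 lies on the minus strand at chr7:142969215-142969514 and Cd44 on the minus strand at chr2:102901616-102901915.
Ascl2: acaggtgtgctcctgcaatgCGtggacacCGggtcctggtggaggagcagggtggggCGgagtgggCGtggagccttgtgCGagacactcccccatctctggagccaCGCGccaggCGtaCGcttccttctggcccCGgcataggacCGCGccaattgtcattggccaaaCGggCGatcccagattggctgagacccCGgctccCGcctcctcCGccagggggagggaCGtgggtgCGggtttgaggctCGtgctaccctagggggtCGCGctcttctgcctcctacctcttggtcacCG
Cd44: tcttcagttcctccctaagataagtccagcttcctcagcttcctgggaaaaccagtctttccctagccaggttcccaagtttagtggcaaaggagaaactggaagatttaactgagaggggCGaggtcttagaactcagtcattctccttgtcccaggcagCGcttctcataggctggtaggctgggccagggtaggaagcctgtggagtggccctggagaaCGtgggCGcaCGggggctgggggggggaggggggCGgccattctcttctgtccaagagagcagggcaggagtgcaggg
The Ascl2 window held 23 CG dinucleotides at 67.0% G+C and the Cd44 window 6 at 58.0%, where the median of 32851 windows of this length was 7 at 52.7%. The TCF/LEF core was searched on both strands as CTTTGAA, also as CTTTGAT, further as CTTTGTA and last as CTTTGTT, letters that other motifs can share. The core was in 16.9% of all windows and in 0 of the 7 windows of the 6 matched genes (Ascl2, Cd44, Ephb2, Lrig1, Axin2 and Rnf43, the last with 2 windows). That says only that these letters are not in these windows.

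Levels per transcript length put Lgr5 last in every group. In control the order of the means was Lrig1 (16.0 FPKM), Cd44 (14.7), Sox9 (6.23), Axin2 (4.65), Ascl2 (3.59), Smoc2 (3.26), Rnf43 (3.24), Ephb2 (2.95), Znrf3 (1.84) and Lgr5 (0.741 FPKM). There the ranges of neighbours overlapped from Lrig1 to Cd44 and along the run from Sox9 to Rnf43, and did not overlap from Cd44 to Sox9 or from Rnf43 down to Lgr5. In HFD, Ascl2 (10.4 FPKM) stood beside Cd44 and Sox9, whose ranges overlapped in a chain, below Lrig1 at 20.8 FPKM, and among the lower neighbours the ranges of Axin2 and Rnf43 alone overlapped. In HFD + P. cinnamivorans, Cd44 led at 22.8 FPKM, apart from Lrig1 at 14.8 and Sox9 at 7.97 FPKM. Below these, the ranges of neighbours from Ascl2 to Znrf3 overlapped.

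**Figure D2:**
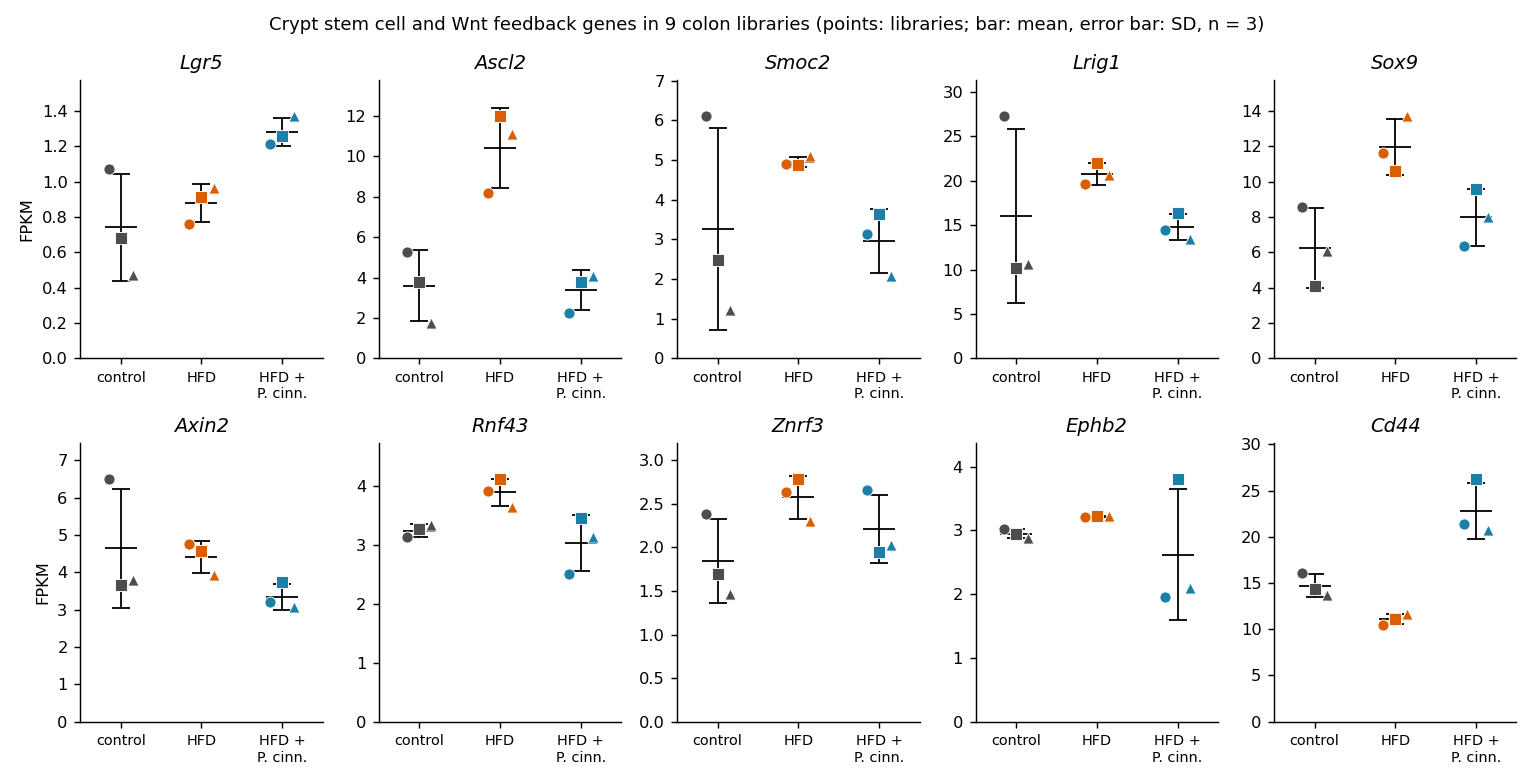
FPKM of each gene (y axis, from 0) in the control, HFD and HFD + P. cinnamivorans (HFD + P. cinn.) libraries (x axis), with points for libraries, a bar for the mean and an error bar for the SD (n = 3). Ascl2 stands at 8.21 to 12.0 FPKM in HFD and at 1.75 to 5.25 FPKM in the other 6 libraries, Cd44 at 20.7 to 26.2 FPKM in HFD + P. cinnamivorans and at 10.5 to 16.1 FPKM elsewhere, and control replicate 1 is the highest control in 9 of the 10 panels, all but Rnf43.

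Ascl2 (ENSMUSG00000009248), the basic helix-loop-helix factor that sets the identity of crypt base stem cells, rose in HFD and was lower in the gavaged group than in HFD. It was at 5.25, 3.78 and 1.75 FPKM in control, 8.21, 12.0 and 11.1 FPKM in HFD, and at 2.25, 3.77 and 4.10 FPKM in HFD + P. cinnamivorans. Every HFD library lay above every other library, while the control and gavaged ranges overlapped. The means were 3.59 ± 1.76, 10.4 ± 1.98 and 3.37 ± 0.989 FPKM (SD, n = 3), from 43 to 350 fragments a library. The log2(FPKM + 1) difference of HFD from control was 1.38 (SE 0.30, 95% interval 0.69 to 2.07, limma adjusted p = 0.015), that of the gavaged group from HFD was -1.40 (SE 0.30, interval -2.09 to -0.71, limma adjusted p = 0.019), and that of the gavaged group from control was -0.02 (interval -0.71 to 0.67, limma adjusted p = 0.98). The HFD call was lost without HFD replicate 2 (limma adjusted p = 0.056) or replicate 4 (0.057), and the call against HFD without HFD replicate 2 (0.078), HFD replicate 4 (0.066) or HFD + P. cinnamivorans replicate 1 (0.071). The latter was also lost with scaling to pan-epithelial genes (-1.31, limma adjusted p = 0.052), and the differences stayed between 1.05 and 1.64 and between -1.20 and -1.55 when any 1 library was left out. The posterior Hox sum moved with Ascl2, at 281 to 301 FPKM in HFD and 12.0 to 71.9 FPKM in the other 6 libraries, and its part was not tested.

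Lgr5 (ENSMUSG00000020140), the R-spondin receptor that marks the same cells, was the lowest of the 10 genes and was not called with all 9 libraries. It was at 1.07, 0.681 and 0.470 FPKM in control, 0.758, 0.913 and 0.963 FPKM in HFD, and at 1.21, 1.26 and 1.37 FPKM in HFD + P. cinnamivorans, from 73 to 247 fragments a library. All 3 gavaged libraries lay above the other 6, and the control and HFD ranges overlapped. The difference did not pass the test: it was 0.28 against HFD (SE 0.15, 95% interval -0.05 to 0.61, limma adjusted p = 0.26) and 0.40 against control (SE 0.15, interval 0.07 to 0.74, limma adjusted p = 0.18). HFD differed from control by 0.12 (interval -0.21 to 0.45, limma adjusted p = 0.59). Without control replicate 1 the difference of the gavaged group from control was 0.54 and was called (limma adjusted p = 0.047), where 6.62% of all tested genes were called, 1.77% higher and 4.85% lower. As a description with no test, the ratio of Ascl2 to Lgr5 was 4.90, 5.55 and 3.73 in control, 10.8, 13.2 and 11.5 in HFD, and 1.85, 2.99 and 3.00 in HFD + P. cinnamivorans, so that no 2 groups overlapped.

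Smoc2 and Lrig1 had their highest value in the same library, control replicate 1, and neither was called. Smoc2 (ENSMUSG00000023886), a secreted matricellular protein used as a crypt base marker, was at 6.11, 2.47 and 1.22 FPKM in control, 4.89, 4.88 and 5.11 FPKM in HFD, and at 3.13, 3.65 and 2.07 FPKM in HFD + P. cinnamivorans. Lrig1 (ENSMUSG00000030029), a membrane protein that restrains ErbB receptors and marks a stem cell population, was at 27.3, 10.2 and 10.6 FPKM, 19.6, 22.0 and 20.7 FPKM, and 14.5, 16.4 and 13.5 FPKM. For both genes the HFD libraries lay above the gavaged libraries without overlap and above control replicates 2 and 3, but not above control replicate 1. The HFD difference from control was 0.65 for Smoc2 (95% interval -0.17 to 1.48, limma adjusted p = 0.24) and 0.50 for Lrig1 (interval -0.22 to 1.21, limma adjusted p = 0.30). That of the gavaged group from HFD was -0.61 (interval -1.44 to 0.21, limma adjusted p = 0.32) and -0.47 (interval -1.18 to 0.25, limma adjusted p = 0.38), and that from control was 0.04 and 0.03 (limma adjusted p = 0.97 for each). In control replicate 1 the smooth muscle sum was 6872 FPKM and the posterior Hox sum 71.9 FPKM, and the part of either was not tested.

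Leaving out control replicate 1 changed these calls. Smoc2 was then 1.10 higher in HFD than in control (SE 0.23, limma adjusted p = 0.010) and Lrig1 0.93 higher (SE 0.11, limma adjusted p = 0.00092). With Znrf3 at 0.47 (limma adjusted p = 0.039), Ascl2 at 1.64 (0.0052) and Sox9 at 1.11 (0.0061), 5 of the 10 genes were called higher and 0 lower, against 11.9% and 13.3% of all tested genes, 25.2% in all. Against HFD, the gavaged group then had Ascl2 (-1.40, limma adjusted p = 0.0079) and Lrig1 (-0.47, limma adjusted p = 0.015) called lower and Cd44 (0.97, limma adjusted p = 0.00081) called higher, with 20.0% of all tested genes called, 9.24% higher and 10.8% lower. Against control, it had Lgr5, Lrig1 (0.47, limma adjusted p = 0.049) and Cd44 (0.66, limma adjusted p = 0.029) called higher. There 6.62% of all tested genes were called, 1.77% higher and 4.85% lower. Lgr5 and Lrig1 were called against control in this fit alone. The control group then rests on 2 libraries. For Ascl2, Smoc2, Znrf3, Sox9 and Lrig1, control replicate 1 was the highest control, so leaving it out raised their HFD differences from control. Fewer of the 10 genes were called in HFD against control without any 1 other library. None was called without HFD replicate 2 or 4, and Ascl2 alone without control replicate 2 or 3 or HFD replicate 1. Control replicate 1 is in neither group when the gavaged group is compared with HFD, so the differences there stayed as with all 9 libraries. What changed there was the estimate of spread, which all groups share in the fit.

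Sox9 (ENSMUSG00000000567), an SRY-box transcription factor of crypt base and progenitor cells and a Wnt target, rose in HFD. It was at 8.55, 4.07 and 6.09 FPKM in control, 11.6, 10.6 and 13.7 FPKM in HFD, and at 6.35, 9.56 and 8.01 FPKM in HFD + P. cinnamivorans. The HFD libraries lay above all others, and the other groups overlapped. The means were 6.23 ± 2.24, 12.0 ± 1.57 and 7.97 ± 1.61 FPKM (SD, n = 3). The HFD difference from control was 0.89 (SE 0.23, 95% interval 0.36 to 1.41, limma adjusted p = 0.030), that of the gavaged group from HFD was -0.54 (SE 0.23, interval -1.07 to -0.01, limma adjusted p = 0.18), and that from control was 0.34 (interval -0.19 to 0.87, limma adjusted p = 0.47). The call was lost without control replicate 2 (0.65, limma adjusted p = 0.079), control replicate 3 (0.89, limma adjusted p = 0.064), or HFD replicate 1 (0.90, limma adjusted p = 0.081), 2 (0.96, limma adjusted p = 0.060) or 4 (0.79, limma adjusted p = 0.11), and with no filter on low values (limma adjusted p = 0.056). As for Ascl2, the posterior Hox and leukocyte sums were highest in the same 3 libraries, and their part was not tested.

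**Figure D3:**
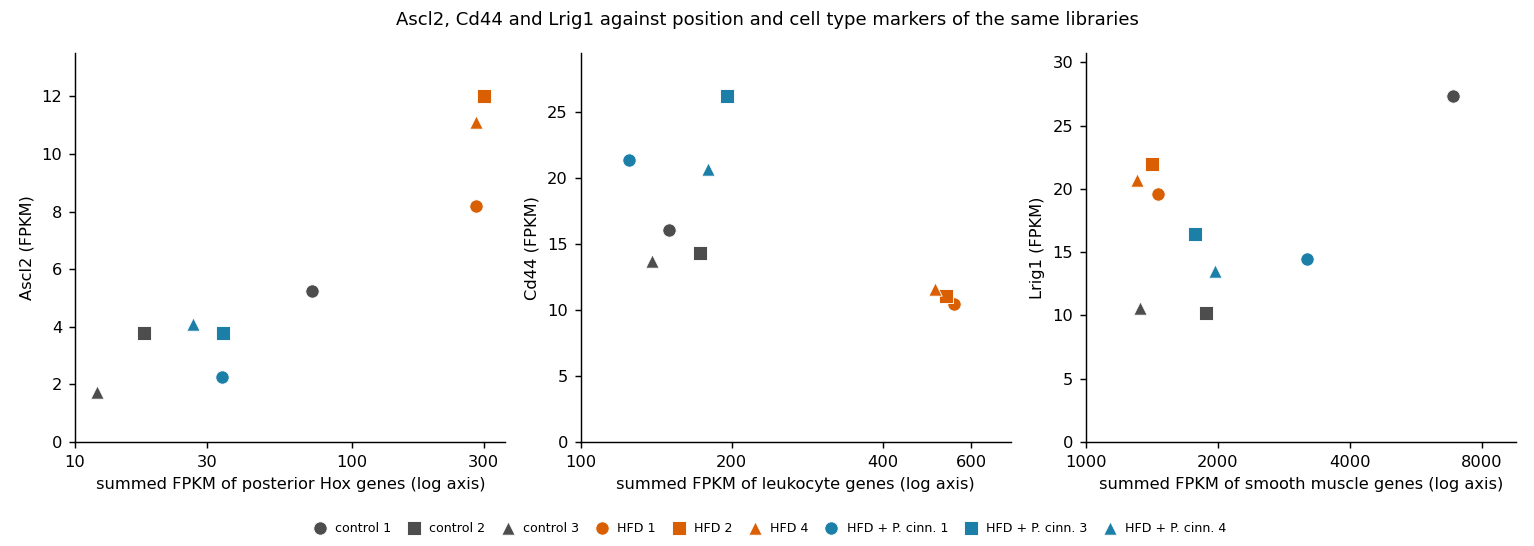
FPKM (y axes, from 0) of Ascl2 against the summed FPKM of 9 posterior Hox genes, of Cd44 against that of 12 leukocyte genes, and of Lrig1 against that of 8 smooth muscle genes (x axes, log scale), with 1 point for each of the 9 libraries, colours for groups (HFD + P. cinn. is the gavaged group) and marker shapes for replicates. The 3 HFD libraries lie at 281 to 301 FPKM of posterior Hox genes and 507 to 555 FPKM of leukocyte genes, and control replicate 1 lies alone at 6872 FPKM of smooth muscle genes.

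None of the feedback genes Axin2, Rnf43 and Znrf3 was called in any comparison with all 9 libraries. Axin2 (ENSMUSG00000000142), the scaffold of the beta-catenin destruction complex that Wnt itself induces, was at 6.49, 3.65 and 3.80 FPKM in control, 4.76, 4.56 and 3.94 FPKM in HFD, and at 3.22, 3.74 and 3.08 FPKM in HFD + P. cinnamivorans. Control replicate 1 was the highest of all libraries, control replicates 2 and 3 lay below all 3 HFD libraries, and the gavaged libraries lay below HFD without overlap. The means were 4.65 ± 1.60, 4.42 ± 0.424 and 3.35 ± 0.346 FPKM (SD, n = 3). The HFD difference from control was -0.03 (95% interval -0.45 to 0.39, limma adjusted p = 0.93). The gavaged group differed from HFD by -0.32 (SE 0.19, interval -0.74 to 0.10, limma adjusted p = 0.32) and from control by -0.35 (SE 0.19, interval -0.77 to 0.08, limma adjusted p = 0.34).

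Rnf43 (ENSMUSG00000034177) and Znrf3 (ENSMUSG00000041961) encode membrane ubiquitin ligases that remove Frizzled receptors from the cell surface. Rnf43 was at 3.13, 3.27 and 3.33 FPKM in control, 3.91, 4.11 and 3.65 FPKM in HFD, and at 2.51, 3.45 and 3.13 FPKM in HFD + P. cinnamivorans. The HFD libraries lay above all others without overlap, at differences of 0.20 from control (SE 0.12, 95% interval -0.06 to 0.47, limma adjusted p = 0.25) and, for the gavaged group from HFD, -0.29 (SE 0.12, interval -0.55 to -0.02, limma adjusted p = 0.16). Znrf3 was at 2.38, 1.69 and 1.46 FPKM, 2.64, 2.78 and 2.30 FPKM, and 2.66, 1.95 and 2.03 FPKM in the same order. Its groups overlapped in every pair, at differences of 0.34 (interval -0.01 to 0.69, limma adjusted p = 0.15) and -0.16 (interval -0.50 to 0.19, limma adjusted p = 0.56). The gavaged group differed from control by -0.08 (interval -0.35 to 0.19) for Rnf43 and 0.18 (interval -0.16 to 0.53) for Znrf3, with limma adjusted p = 0.76 and 0.56.

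Cd44 (ENSMUSG00000005087), the hyaluronan receptor that is a Wnt target of crypt cells and is also carried by leukocytes, rose in the gavaged group against HFD. It was at 16.1, 14.3 and 13.7 FPKM in control, 10.5, 11.1 and 11.6 FPKM in HFD, and at 21.4, 26.2 and 20.7 FPKM in HFD + P. cinnamivorans. No 2 groups overlapped, with HFD lowest and the gavaged group highest. The means were 14.7 ± 1.24, 11.1 ± 0.518 and 22.8 ± 3.03 FPKM (SD, n = 3), from 1340 to 2964 fragments a library. The gavaged group differed from HFD by 0.97 (SE 0.12, 95% interval 0.69 to 1.25, limma adjusted p = 0.0014), and the call was kept in 20 of 20 alternative settings, at 0.81 to 1.08. The difference from control was 0.59 (SE 0.12, interval 0.31 to 0.88, limma adjusted p = 0.056), and HFD differed from control by -0.38 (SE 0.12, interval -0.66 to -0.10, limma adjusted p = 0.063). Those did not pass, but the former was called without control replicate 1 and the latter without HFD + P. cinnamivorans replicate 3 (limma adjusted p = 0.038).

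Cd44 was lowest in the libraries with the most leukocyte RNA. Ptprc, the pan-leukocyte phosphatase CD45, was at 1.41 to 1.88 FPKM in control, 7.66 to 8.23 FPKM in HFD and 2.89 to 3.84 FPKM in HFD + P. cinnamivorans. The ratio of Cd44 to Ptprc was 11.4, 7.63 and 8.43 in control, 1.37, 1.45 and 1.41 in HFD, and 7.40, 7.46 and 5.39 in HFD + P. cinnamivorans. In FPKM, Cd44 was lower in HFD than in control, and the leukocyte markers were higher. In HFD + P. cinnamivorans, Cd44 and Ptprc both lay above control without overlap (Ptprc difference 0.74, limma adjusted p = 0.037). The summed leukocyte genes of those groups overlapped. The ratio of Cd44 to Epcam, a pan-epithelial gene, overlapped between control (0.0277, 0.0160 and 0.0133) and HFD (0.0166, 0.0161 and 0.0194). In HFD + P. cinnamivorans that ratio was 0.0380, 0.0419 and 0.0494. Whether crypt or other cells carried the RNA was not tested.

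Ephb2 (ENSMUSG00000028664), the ephrin receptor that positions cells along the crypt and is graded towards its base, was called in no comparison with all 9 libraries. It was at 3.03, 2.94 and 2.88 FPKM in control, 3.21, 3.22 and 3.22 FPKM in HFD, and at 1.95, 3.80 and 2.10 FPKM in HFD + P. cinnamivorans. The HFD libraries lay just above control without overlap (difference 0.09, SE 0.18, 95% interval -0.31 to 0.50, limma adjusted p = 0.75). In the gavaged group replicate 3 was the highest of the 9 libraries and the other 2 were the lowest. That group differed from HFD by -0.26 (interval -0.66 to 0.15, limma adjusted p = 0.40), or by -0.48 without its replicate 3 (SE 0.10, limma adjusted p = 0.024, called), and from control by -0.16 (interval -0.56 to 0.24, limma adjusted p = 0.67).

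Counted by separation, 5 of the 10 genes had non-overlapping HFD and control libraries, Ascl2, Rnf43, Ephb2 and Sox9 higher and Cd44 lower in HFD, where 42.1% of all tested genes did not overlap (21.9% higher, 20.1% lower). Between the gavaged group and HFD, 8 of 10 did not overlap, Lgr5 and Cd44 higher and Ascl2, Axin2, Smoc2, Rnf43, Sox9 and Lrig1 lower, where 39.0% of all tested genes did not (18.7% higher, 20.3% lower). Between the gavaged group and control, 2 of 10 did not overlap, Lgr5 and Cd44, both higher, where 21.7% did not (9.86% higher, 11.9% lower). Of the 6 genes lower than HFD without overlap, Ascl2 was the 1 called with all 9 libraries.

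The genes around these 10 in the Wnt, BMP and Notch pathways were read from 10 lists with 142 tested genes of 174. In HFD against control 21 of the 142 rose and 11 fell, where 10.6% of all tested genes were higher and 9.11% lower. In the gavaged group against HFD 10 rose and 12 fell, where 4.54% were higher and 7.60% lower, and in the gavaged group against control limma called 0 (18 had an unadjusted p below 0.05, and limma-voom called 0). Without control replicate 1, 33 of the 142 were higher and 15 lower in HFD against control (11.9% and 13.3% of all tested genes), 15 and 22 in the gavaged group against HFD (9.24% and 10.8%), and 7 and 5 in the gavaged group against control (1.77% and 4.85%). For each list below, the median log2 difference over its tested genes is given, to be read beside the all-gene medians of -0.001 in HFD against control and -0.014 in the gavaged group against HFD.

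Among 9 tested Wnt ligands and secretion genes, Wls, the carrier that takes Wnt proteins to the cell surface, rose in HFD (17.4 ± 0.891 against 12.1 ± 1.12 FPKM, difference 0.49, limma adjusted p = 0.025) and Wnt11, a ligand of the non-canonical branch, fell (0.299 ± 0.0460 against 0.854 ± 0.0961 FPKM, difference -0.51, limma adjusted p = 0.044). Against HFD, 0 of the 9 were called in the gavaged group (3 at an unadjusted p below 0.05, 0 by limma-voom). The list medians were 0.41 and -0.20. Both calls were lost without 1 library, at a limma adjusted p of 0.059 to 0.097 for Wls without control replicate 2 or 3 or any 1 HFD library, and of 0.052 to 0.13 for Wnt11 without any 1 control or HFD library or HFD + P. cinnamivorans replicate 3. The Wnt11 call was lost in 13 of 20 alternatives. Among these were no filter on low values, TPM scaling, and scaling without mitochondrial and immunoglobulin genes, to pan-epithelial genes or to all recovered fragments. Wnt2b and Wnt5a, ligands of the stroma, were at 0.636 ± 0.234 and 2.63 ± 0.786 FPKM in control, 1.57 ± 0.561 and 2.29 ± 0.151 FPKM in HFD, and at 0.995 ± 0.487 and 3.32 ± 0.421 FPKM in the gavaged group, and neither was called.

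Of 17 tested R-spondins and Wnt receptors, 3 rose and 2 fell in HFD, and 2 rose and 2 fell in the gavaged group against HFD, with list medians of -0.09 and 0.03. Lgr4, the wider-ranging relative of Lgr5, was at 17.7, 20.2 and 32.3 FPKM in control, 39.2, 35.8 and 40.0 FPKM in HFD, and at 24.4, 21.9 and 18.2 FPKM in HFD + P. cinnamivorans. It rose by 0.73 in HFD (limma adjusted p = 0.042) and fell by 0.81 in the gavaged group against HFD (limma adjusted p = 0.039), calls that were lost in 11 and 9 of 20 alternatives. The former was lost without control replicate 1 or 2 or any 1 library of the other groups (limma adjusted p = 0.051 to 0.13), the latter without control replicate 2 or any 1 library of the other groups (0.055 to 0.13). The Frizzled receptor Fzd1 went the same way, at 5.04 ± 0.661, 10.9 ± 0.0847 and 6.29 ± 1.59 FPKM (differences 0.98 and -0.73, limma adjusted p = 0.0051 and 0.025). Fzd3 went the other way, at 0.841 ± 0.113, 0.204 ± 0.0371 and 1.30 ± 0.305 FPKM (differences -0.61 and 0.93, limma adjusted p = 0.014 and 0.0027), as did Fzd8 (-0.53 and 0.65, limma adjusted p = 0.013 and 0.0064). The fall of Fzd1 was lost without any 1 HFD library or HFD + P. cinnamivorans replicate 1 (limma adjusted p = 0.053 to 0.087), that of Fzd3 in HFD without control replicate 2 (0.053) or HFD replicate 1 (0.055), and that of Fzd8 in HFD without HFD replicate 2 (0.056) and under 4 other scalings (0.057 to 0.21). Rspo3, the R-spondin of the crypt stroma, was at 1.74 ± 1.68, 2.72 ± 0.499 and 1.50 ± 0.225 FPKM and was not called. Lgr6 was below the filter.

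Of 12 tested secreted inhibitors only Sfrp2, a soluble Frizzled-related protein, was called. It was at 0.731 ± 0.560 FPKM in control, 3.57 ± 0.804 FPKM in HFD and 0.403 ± 0.292 FPKM in the gavaged group, with differences of 1.43 for HFD from control (limma adjusted p = 0.0056) and -1.71 for the gavaged group from HFD (limma adjusted p = 0.0030). The list medians were 0.15 and -0.07. Sfrp1, Dkk2 and Dkk3 were not called, and their control means came with SDs of 9.12, 1.18 and 7.20 FPKM with control replicate 1 highest, at 20.8, 2.32 and 21.2 FPKM. Notum, the Wnt deacylase, was below the filter at 0 to 0.238 FPKM.

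Of 22 tested genes of the destruction complex and TCF factors, 3 rose in HFD and 2 of these fell in the gavaged group against HFD, with list medians of -0.10 and -0.02. Tcf7l1, the TCF factor best known as a repressor, was at 4.71, 3.93 and 3.86 FPKM in control, 16.4, 15.1 and 12.8 FPKM in HFD, and at 2.19, 2.34 and 2.55 FPKM in HFD + P. cinnamivorans. The 3 groups did not overlap, and the differences were 1.61 (SE 0.13, limma adjusted p = 0.00012) and -2.22 (SE 0.13, limma adjusted p = 2.8e-05). Tcf7, which T cells carry in quantity, was at 2.99 ± 0.420, 7.59 ± 0.831 and 2.83 ± 1.08 FPKM (1.11 and -1.20, limma adjusted p = 0.0086 and 0.0074), and the leukocyte genes moved the same way. Tle4, a co-repressor, rose in HFD by 0.64 (limma adjusted p = 0.027), a call lost without control replicate 2 (0.091) or HFD replicate 2 (0.082) or 4 (0.10). Ctnnb1, beta-catenin itself, was at 98.9 ± 28.0, 74.3 ± 3.57 and 83.1 ± 23.0 FPKM and Tcf7l2, the main intestinal TCF factor, at 14.1 ± 1.74, 12.8 ± 0.852 and 12.2 ± 3.38 FPKM, and neither was called.

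Of 20 other Wnt targets of the crypt epithelium, 1 rose and 2 fell in HFD, and 2 rose and 1 fell in the gavaged group against HFD, with list medians of -0.03 and -0.00. Myc was at 10.1 ± 1.24, 15.0 ± 0.438 and 8.06 ± 1.64 FPKM (0.53 and -0.84, limma adjusted p = 0.037 and 0.0074). Its HFD call was lost without control replicate 2 or 3, any 1 HFD library or HFD + P. cinnamivorans replicate 4 (limma adjusted p = 0.053 to 0.11), and the other call with scaling to pan-epithelial genes (0.062). Cdx2, the homeobox factor of intestinal identity, was at 112 ± 34.8, 8.10 ± 1.40 and 68.8 ± 13.3 FPKM (-3.59 and 2.93, limma adjusted p = 7.9e-05 and 0.00023). Zfp703 fell in HFD by 0.88 (limma adjusted p = 0.0037), and Prox1, a homeobox factor, rose in the gavaged group by 0.94 (limma adjusted p = 0.0097). The feedback inhibitor Nkd1 was at 6.60 ± 3.55, 2.95 ± 0.674 and 3.98 ± 1.22 FPKM, with control replicate 1 highest at 10.6 FPKM, and was not called. Ccnd1, the cyclin of G1 phase, was at 5.41 ± 1.45, 6.82 ± 0.247 and 5.91 ± 3.37 FPKM. Ephb3, the relative of Ephb2, was at 7.13, 2.83 and 2.43 FPKM in control, 6.20, 6.30 and 6.38 FPKM in HFD, and at 3.39, 4.45 and 2.94 FPKM in HFD + P. cinnamivorans, again with control replicate 1 far above the other controls. Its ligand Efnb1 was at 25.5 ± 6.58, 16.6 ± 1.70 and 17.3 ± 2.46 FPKM and Tnfrsf19 at 1.27 ± 0.363, 1.28 ± 0.101 and 1.26 ± 0.399 FPKM, and none of these 4 was called.

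**Figure D4:**
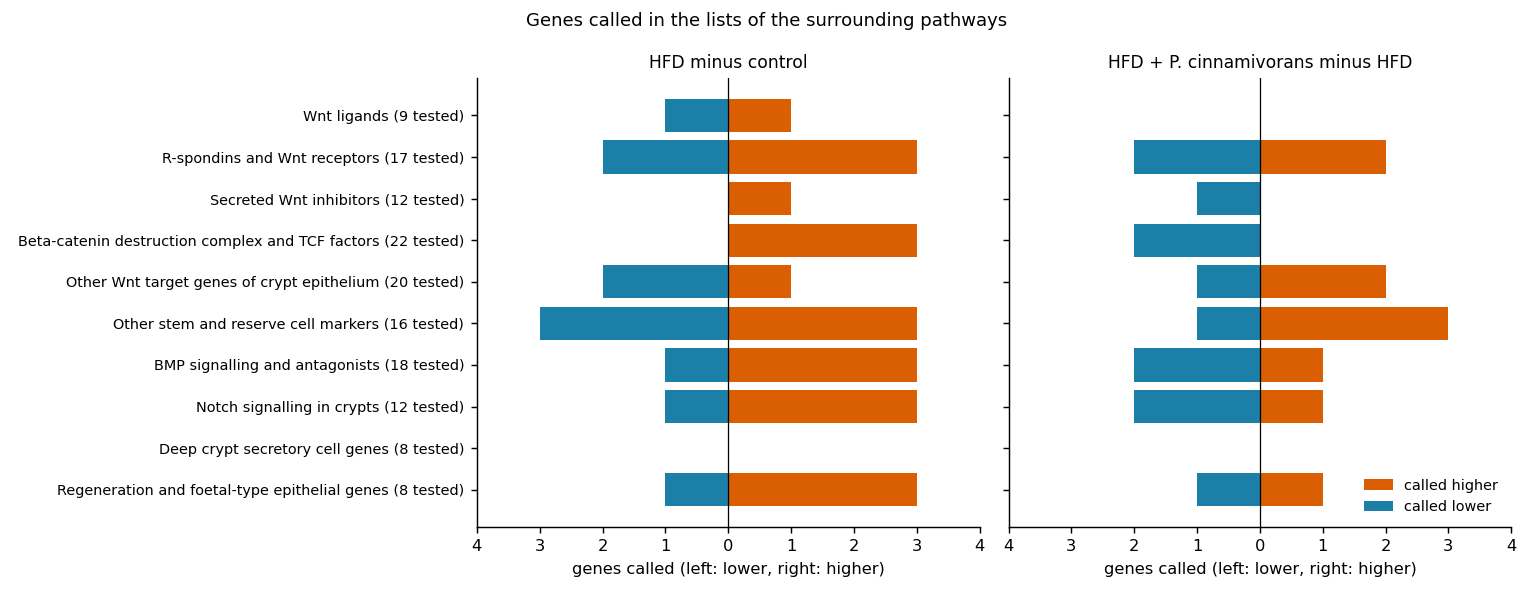
Number of genes called higher (right) and lower (left) in each of the 10 lists of the surrounding pathways (y axis, with the number tested), for HFD against control and for HFD + P. cinnamivorans against HFD. The lists hold genes called in both directions, for example 3 higher and 3 lower among 16 other stem and reserve cell markers in HFD, and none of the 8 deep crypt secretory genes was called.

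Of 16 other stem and reserve cell markers, 3 rose and 3 fell in HFD, and 3 rose and 1 fell in the gavaged group against HFD, with list medians of 0.19 in each. Prom1, a membrane protein of crypt cells, was at 49.3 to 99.0 FPKM in control, 3.34 to 4.40 FPKM in HFD and 50.4 to 68.5 FPKM in the gavaged group (-3.84 and 3.57, limma adjusted p = 4.7e-05 and 7.4e-05), and Aldh1a1, a retinaldehyde dehydrogenase, at 117 ± 74.2, 7.44 ± 1.18 and 95.9 ± 16.2 FPKM (-3.49 and 3.52, limma adjusted p = 0.0030 and 0.0036). Clu, the marker of a revival stem cell state, ran opposite, at 15.0 ± 5.93, 69.3 ± 6.69 and 12.3 ± 3.44 FPKM (2.21 and -2.43, limma adjusted p = 0.0013 and 0.0011). Bmi1 was at 9.25 ± 0.246, 9.52 ± 0.603 and 12.0 ± 1.58 FPKM and Hopx at 11.4 ± 4.26, 15.3 ± 3.23 and 8.70 ± 1.59 FPKM, without a call. Olfm4, the small intestinal stem cell marker, was below the filter at 0 to 0.468 FPKM. Of 8 deep crypt secretory genes limma called 0 in each comparison (2 had an unadjusted p below 0.05 in each, and limma-voom called 0, 1 and 0), with list medians of -0.09 and -0.12 in the first and the second. Among them Reg4 was at 14.9, 336 and 374 FPKM in control, 247, 344 and 325 FPKM in HFD, and at 13.5, 29.4 and 27.5 FPKM in HFD + P. cinnamivorans. The low control was replicate 1.

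Of 18 genes of BMP signalling, which opposes stem cell renewal, 3 rose and 1 fell in HFD, and 1 rose and 2 fell in the gavaged group against HFD, with list medians of 0.25 and -0.28. Bmp2 was at 10.9 ± 1.90, 38.4 ± 3.97 and 8.41 ± 0.827 FPKM (1.73 and -2.07, limma adjusted p = 0.00017 and 9.4e-05), and Smad4, the shared signal carrier, at 22.1 ± 0.846, 40.3 ± 2.03 and 21.0 ± 2.82 FPKM (0.84 and -0.92, limma adjusted p = 0.0022 and 0.0018). Bmp3 ran opposite, at 10.8 ± 3.40, 2.87 ± 0.308 and 14.7 ± 2.47 FPKM (-1.57 and 2.02, limma adjusted p = 0.0018 and 0.00063). Grem1, the BMP antagonist of the crypt stroma, was at 25.4, 3.75 and 1.83 FPKM in control, 15.9, 13.0 and 15.3 FPKM in HFD, and at 7.40, 13.1 and 5.60 FPKM in HFD + P. cinnamivorans, and was not called.

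Of 12 Notch genes, 3 rose and 1 fell in HFD, and 1 rose and 2 fell in the gavaged group against HFD, with list medians of 0.22 and -0.22. The ligand Dll1 was at 2.60 ± 0.420, 4.57 ± 0.379 and 2.14 ± 0.636 FPKM (0.64 and -0.84, limma adjusted p = 0.026 and 0.011), and Spdef, a goblet cell factor, at 26.4 ± 12.2, 8.89 ± 0.243 and 36.0 ± 17.2 FPKM (-1.38 and 1.80, limma adjusted p = 0.028 and 0.012). In HFD, the call of Dll1 was lost without control replicate 2 or any 1 HFD library (limma adjusted p = 0.062 to 0.098), and that of Spdef without any 1 HFD library (0.080 to 0.082) and under 4 other scalings (0.060 to 0.095). Of 8 regeneration and foetal-type genes, 3 rose and 1 fell in HFD, and 1 rose and 1 fell in the gavaged group against HFD, with list medians of 0.23 and -0.32. Ly6a (Sca-1), also carried by leukocytes, stromal and endothelial cells, was at 218 ± 94.5, 1077 ± 239 and 235 ± 30.1 FPKM (2.36 and -2.18, limma adjusted p = 0.0011 and 0.0020). Spp1 ran opposite (-0.74 and 0.79, limma adjusted p = 0.026 and 0.027), but those calls were lost without control replicate 3 or any 1 HFD library (0.059 to 0.086), and without any 1 HFD library or HFD + P. cinnamivorans replicate 1 or 3 (0.058 to 0.098).

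The lists of other cells were counted in the same way. In HFD against control, 11 of 12 leukocyte genes rose, 1 of 8 pan-epithelial genes rose (Grhl2) and 1 fell (St14), 1 of 10 fibroblast genes (Col1a2) and 1 of 6 endothelial genes (Lyve1) rose, 2 of 8 enteric glia and neuron genes (Gfap and Tubb3) and 2 of 5 tuft cell genes (Sh2d6 and Avil) fell, 5 of 8 posterior Hox genes rose and 6 of 7 anterior Hoxb genes fell. In the gavaged group against HFD, 10 leukocyte genes, 4 posterior Hox genes and 1 endothelial gene (Pecam1) fell, 6 anterior Hoxb genes, 3 glia and neuron genes and 3 tuft cell genes rose, and 0 pan-epithelial and 0 fibroblast genes were called (2 and 3 at an unadjusted p below 0.05, 0 and 0 by limma-voom). In the gavaged group against control, Ptprc rose (0.74, limma adjusted p = 0.037), St14 fell (-1.02, limma adjusted p = 0.041) and 0 others of these lists were called. Both calls were lost without any 1 library other than control replicate 1, at 0.055 to 0.13 for Ptprc and 0.051 to 0.12 for St14, and that of St14 was kept in 4 of 20 alternatives. Other calls of these lists were also lost without 1 library. In HFD against control these were Grhl2 without control replicate 2 or any 1 HFD library (limma adjusted p = 0.063 to 0.11), Col1a2 without control replicate 2 or 3 or any 1 HFD library (0.073 to 0.12), Lyve1 without any 1 HFD library (0.054 to 0.065) and Avil without HFD replicate 4 (0.051). In the gavaged group against HFD, Pecam1 and the glia and neuron gene Tubb3 were lost without any 1 HFD library or HFD + P. cinnamivorans replicate 1 or 4 (0.056 to 0.12 and 0.078 to 0.12), as was S100b, which was also lost without control replicate 2 (0.059 to 0.14). The tuft cell gene Sh2d6 was lost without HFD replicate 1 or 4 or HFD + P. cinnamivorans replicate 1 (0.061 to 0.063). The other tuft cell genes called, Trpm5 and Pou2f3, were lost in 16 and 15 of 20 alternatives. Trpm5 was lost without any 1 library but control replicate 1 and HFD replicate 4 (0.063 to 0.17), and Pou2f3 without any 1 but control replicate 1 (0.054 to 0.16). Smooth muscle genes were called in no comparison (0 of 8 at an unadjusted p below 0.05 and 0 by limma-voom). Nor were cell cycle genes (3, 0 and 1 of 10 at an unadjusted p below 0.05 in the 3 comparisons, and 0 by limma-voom), whose sum was 98.7 to 156, 141 to 177 and 123 to 177 FPKM.

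Genes whose pattern over the 9 libraries was most like that of Lgr5 and Axin2 were ranked by Pearson's r of log2(FPKM + 1), as a description over libraries that share their groups. For Lgr5 they were Srsf10 (r = 0.975), Brms1l (0.968), Gulp1 (0.959), Mettl1 (0.955) and Zfp275 (0.954). Srsf10 was at 19.2, 14.9 and 13.3 FPKM in control, 15.9, 15.7 and 17.2 FPKM in HFD, and at 20.2, 19.8 and 21.5 FPKM in HFD + P. cinnamivorans, the same order of groups as Lgr5. For Axin2 they were Htatsf1 (0.969), Nfix (0.963), Tmem9 (0.962), Nxph4 (0.957) and Bcr (0.952). Nfix was at 14.4, 8.37 and 7.22 FPKM, 11.1, 10.5 and 7.82 FPKM, and 6.96, 7.53 and 6.76 FPKM, with control replicate 1 the highest, as for Axin2. None of the other 9 genes described here was among the nearest of either.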

How the data were processed

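The authors deposited 1 table of FPKM values for 54491 genes in 9 libraries. According to the submitters' processing notes, HISAT2 2.0.5 aligned the reads, with GRCm39 named as build. The sources used here name no counting tool, strand setting or annotation, so antisense and overlapping genes may share reads. FPKM are not counts, so limma 3.58.1 (R 4.3.3) was fitted with a variance trend to log2(FPKM + 1) of the 9 libraries together, with no covariate, for the 17907 genes at 0.5 FPKM or more in at least 3 libraries. This scale understates changes of low genes. Benjamini-Hochberg adjustment was done separately for each comparison, and a gene was called below 0.05. The script was tested on simulated data.

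FPKM values were whole multiples of the value of 1 fragment for 100% of tested genes, which gave fragment counts and library totals. The tolerance was 0.01, and wider for genes not resolved at that value. For genes whose length did not match GENCODE M21, a gene annotation, counts are known only up to a common factor. The ratio of the denominators of the deposited FPKM to the library totals was 0.89 to 1.082, relative to a geometric mean of 1. It was 1.01, 0.896 and 0.89 in control replicates 1, 2 and 3, 1.076 to 1.082 in HFD, and 0.94 to 1.033 in HFD + P. cinnamivorans. The deposited scaling thus differed between groups and was highest in HFD. A symbol was found in GENCODE M21 for 52093 of 54491 identifiers, and promoter windows came from RefSeq GRCm38.p6, of another build than the files.

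Named genes were the 10 members, up to 3 called genes with the smallest p per list and comparison, a fixed set of pathway and marker genes, and the 5 genes most like Lgr5 and Axin2. The members and the 20 lists were chosen with earlier results of these data known. In all, 18 other settings were set out with the design: pseudocount, filter, scaling, trend, samples fitted, replicate block, or 1 library left out. Another 2 (limma-voom on recovered fragments, and scaling to their totals) were chosen after seeing the data.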

Additional observations from a re-analysis of the deposited data

How the results depend on the processing

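The differences below are log2(FPKM + 1). Cd44 kept its call against HFD under 20 of 20 settings. Every result whose sign turned was uncalled with all 9 libraries. Ascl2 in HFD + P. cinnamivorans against control, -0.02, became 0.05 with TPM scaling, 0.14 with scaling without mitochondrial and immunoglobulin genes, 0.26 with scaling to pan-epithelial genes, 0.01 by limma-voom and 0.05 with scaling to all recovered fragments, and ran from -0.35 to 0.24 with 1 library left out. Axin2 in HFD against control, -0.03, became 0.22, 0.16, 0.18 and 0.14 with the 4 scalings in that order and 0.00 with the replicate block, and ran from -0.15 to 0.19. In HFD + P. cinnamivorans against control, Ephb2 became 0.12 with scaling to pan-epithelial genes, Lrig1 -0.02 with the replicate block (-0.20 to 0.47 with 1 library left out), Rnf43 0.09 without mitochondrial and immunoglobulin genes and 0.21 with scaling to pan-epithelial genes (-0.16 to 0.02), and Smoc2 -0.01 with quantile normalization (-0.35 to 0.49).

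Of the 10 genes, 2 were called in HFD against control, 1 without the filter, 0 with the replicate block and 0 to 5 with 1 library left out. Against HFD the gavaged group had 2 called, 1 with scaling to pan-epithelial genes, 4 with only the 2 groups compared (Smoc2 and Lrig1 in addition), 1 with the replicate block and 1 to 3 with 1 library left out. With only these 2 groups compared, 3210 of the 17907 tested genes were called, where 2174 were called with all 9 libraries. Against control it had 0, then 1 (Cd44) with scaling without mitochondrial and immunoglobulin genes, 1 (Cd44) with scaling to pan-epithelial genes, and 0 to 3 with 1 library left out.

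Over all genes, 3535 were called in HFD against control, 1985 with the replicate block and 1857 to 4521 with 1 library left out, with 2236 without control replicate 2 and 1945, 2123 and 1857 without HFD replicates 1, 2 and 4. Against HFD, 2174 were called in the gavaged group, 1288 with the block and 1161 to 3588 with 1 library left out (3588 without control replicate 1, 1161, 1205 and 1404 without HFD replicates 1, 2 and 4, and 1294 and 1414 without HFD + P. cinnamivorans replicates 1 and 4). Against control, 198 were called, 15 without the filter, 6 with TPM scaling, 314 without mitochondrial and immunoglobulin genes, 46 with quantile normalization, 602 with scaling to pan-epithelial genes, 2 with only the 2 groups, 0 with the block, 81 with all recovered fragments, and 0 to 1186 with 1 library left out (1186 without control replicate 1). Some of these fits have fewer samples or degrees of freedom, and the causes of the changes in these counts were not tested. Scaling took the median difference of all genes in HFD against control from -0.001 to 0.240 (TPM), 0.173 (without mitochondrial and immunoglobulin genes), 0.192 (pan-epithelial) and 0.152 (all recovered fragments). That in the gavaged group against HFD went from -0.014 to -0.200 (TPM) and -0.102 (all recovered fragments), and that against control from -0.010 to 0.139 (without mitochondrial and immunoglobulin genes) and 0.254 (pan-epithelial). The share of called genes that were higher in HFD went from 53.8% to 78.2%, 77.4%, 77.7% and 74.8%, that in the gavaged group against HFD from 37.4% to 25.3% with TPM, 50.7% with pan-epithelial genes and 28.3% with all fragments, and that against control from 23.7% to 76.1% without mitochondrial and immunoglobulin genes, 90.7% with pan-epithelial genes and 46.9% with all fragments.

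Deviations of the tested genes from their group means were correlated between libraries of different groups. Same-numbered libraries gave -0.156 to 0.187 (6 pairs) and differently numbered ones -0.168 to 0.155. These values do not settle whether equal numbers mark a pairing. With the replicate block, the calls of Ascl2 (1.21, limma adjusted p = 0.086, and -1.23, 0.10) and Sox9 (0.90, 0.068) were lost. Lgr5 rests on 73 to 247 fragments a library, which limits its precision.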
